A study of Arabidopsis thaliana with 9 samples.

Results

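The 40 genes described here encode cysteine-rich receptor-like kinases (CRKs) of Arabidopsis thaliana. They were taken by their gene identifiers, 40 of the 32548 genes in the deposited expression table, and 20 of them (CRK5 to CRK24, AT4G23130 to AT4G23320) form one tandem array on chromosome 4. The study measured RNA in whole seedlings of 11 days of age grown on MS plates, in 3 genotypes with 3 libraries each. The al24567 seedlings were homozygous for mutant alleles of 5 ALFIN1-LIKE genes (al2-/- al4-/- al5-/- al6-/- al7-/-), which encode PHD-finger readers of histone H3 lysine-4 methylation. The ring1a1b seedlings carried homozygous mutations in RING1A and RING1B (ring1a-/- ring1b-/-), subunits of the Polycomb repressive complex that ubiquitinates histone H2A. The wild type was Col-0, and each mutant is set against the same Col-0 libraries. The labels do not say that the libraries of a genotype came from separate cultures, so the p-values measure the spread between these samples, which may be technical.

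CRKs are plasma membrane proteins. The outside part carries repeats of the DUF26 domain with a conserved spacing of cysteines, a single membrane span follows, and the part inside the cell is a serine/threonine kinase. Many family members are induced by salicylic acid, pathogens, ozone or other oxidative stress, and overexpression of CRK4, CRK5, CRK19 or CRK20 is known to trigger defence-associated cell death.

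The conserved cysteines are the signature that defines the family. The coding DNA of the first C-X8-C-X2-C motif is shown for members that carry the main differences between genotypes, read 5′ to 3′ on the coding strand of TAIR10.1, with the 3 cysteine codons in capitals. CRK13 had the largest rise in al24567, CRK22 shares exon sequence with it, CRK6 and CRK7 moved in opposite directions in the 2 mutants, CRK10 fell in both, and CRK30 lies outside the array.
CRK13, chr4:12151146-12151184, minus strand: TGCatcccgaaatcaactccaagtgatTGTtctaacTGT
CRK22, chr4:12182236-12182274, plus strand: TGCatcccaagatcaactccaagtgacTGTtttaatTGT
CRK6, chr4:12121652-12121690, plus strand: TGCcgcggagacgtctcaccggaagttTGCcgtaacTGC
CRK7, chr4:12125983-12126021, plus strand: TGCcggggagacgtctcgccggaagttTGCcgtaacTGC
CRK10, chr4:12138456-12138494, plus strand: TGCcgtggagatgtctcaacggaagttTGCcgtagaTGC
CRK30, chr4:6964702-6964740, plus strand: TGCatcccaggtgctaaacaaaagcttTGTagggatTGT
The annotated coding sequences held 2 such motifs in most members, 4 in CRK17, 3 in CRK23 and 1 in CRK24 and in CRK27. Coding length set CRK9 apart, with 265 codons for amino acids, against 528 in CRK24, the next shortest in the array, and 1043 in CRK8.

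Near-identical exons limit how well reads can be given to single members. Of the 50-base windows of exon sequence, 22.0% in CRK6, 16.5% in CRK8, 16.2% in CRK22 and 15.4% in CRK13 recur elsewhere in the genome. CRK6 shares 452 such windows with CRK8, and CRK13 shares 365 with CRK22. Annotated exons of CRK16 and CRK17 lie on the same strand and overlap, with 629 shared windows, as do those of CRK28 and CRK29, with 451. CRK10 overlaps CRK11 on the opposite strand, CRK19 overlaps AT4G23271, CRK25 overlaps AT4G05190 and CRK42 overlaps AT5G40382. Whether the counting used strand is not given in the sources used here, so values of these members are uncertain to that extent.

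Upstream DNA was searched for the W-box hexamers TTGACC and TTGACT, the core recognised by WRKY transcription factors of the defence response. Both strands of the 250 bases before each annotated gene start were searched, and a pair of matches on the minus strand shared 1 base before CRK37. At least 1 match stood before 13 of 20 array members and 13 of 20 other members (65.0% each), against 28.4% of the windows of the same length before the 27443 protein-coding genes of the table. Windows of CRK5 and CRK6 are shown because both genes rose in al24567 and held 3 and 2 matches, in capitals, and the window of CRK13 because it held none although CRK13 rose most. They are read 5′ to 3′ on each gene's strand, TAIR10.1.
CRK5, chr4:12120221-12120470, minus strand: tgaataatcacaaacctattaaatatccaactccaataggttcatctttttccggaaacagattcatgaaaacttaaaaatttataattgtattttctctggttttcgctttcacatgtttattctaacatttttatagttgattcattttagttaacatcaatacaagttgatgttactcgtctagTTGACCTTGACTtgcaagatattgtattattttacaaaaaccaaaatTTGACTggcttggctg
CRK6, chr4:12121119-12121368, plus strand: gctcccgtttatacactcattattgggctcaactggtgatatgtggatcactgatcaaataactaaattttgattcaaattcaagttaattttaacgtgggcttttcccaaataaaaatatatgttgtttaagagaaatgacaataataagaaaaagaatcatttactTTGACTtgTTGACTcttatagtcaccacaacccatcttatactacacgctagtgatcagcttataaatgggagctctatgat
CRK13, chr4:12151639-12151888, minus strand: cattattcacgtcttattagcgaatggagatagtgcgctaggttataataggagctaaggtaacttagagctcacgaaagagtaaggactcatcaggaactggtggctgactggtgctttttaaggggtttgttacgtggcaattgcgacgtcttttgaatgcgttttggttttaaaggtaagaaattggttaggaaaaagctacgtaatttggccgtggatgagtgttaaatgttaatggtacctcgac
A match was present before 17 of the 24 members called higher in al24567 than in Col-0, before 1 of the 2 called lower and before 8 of the 13 not called. A match of these letters is a description of the sequence and not a measured binding site.

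The deposited values are counts adjusted to a common library size, and recovered reads totalled 18258434 to 22435656 per library. A member counts as higher or lower where limma, run on log2(value + 1) over the 23207 genes that passed a filter on low values, gave a Benjamini-Hochberg adjusted p below 0.05; this scale understates changes of low genes. The mutated genes were checked first. AL2, AL4, AL6 and AL7 were lower in al24567 than in Col-0, with log2 fold changes of -2.69, -1.74, -1.72 and -1.95, whereas AL5 stood at -0.055 (limma adjusted p = 0.844). RING1A and RING1B were lower in ring1a1b, at -6.22 and -0.79. The RING1B call was lost without Col-0 replicate 2, at -0.66 (limma adjusted p = 0.0575). All 5 root markers (SCR, PRP3, EXPA7, EXPA18, COBL9) were higher in al24567, with a median log2 fold change of 0.81, and their summed value was 2568 to 3033 in al24567, 1593 to 2208 in ring1a1b and 1516 to 1701 in Col-0. All 4 tested seed storage and late-embryogenesis markers (CRC, CRA1, OLEO1, EM1) were higher in ring1a1b, and the summed value of the 5 listed was 1022 to 3528 in ring1a1b, 0.476 to 44.1 in al24567 and 2.12 to 6.29 in Col-0, where CRC, OLEO1, EM1 and AT2S1 had 0 reads. Of 5 green tissue markers GLK1 alone was called, higher in each mutant than in Col-0; in ring1a1b the call was lost without Col-0 replicate 1 or 3 or ring1a1b replicate 1 or 3 (limma adjusted p of 0.0549 to 0.138). The root marker EXPA7 lost its call without al24567 replicate 1 (0.0589).

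Expression of the family was higher in al24567 than in Col-0. Of the 39 members tested, 24 were higher and 2 (CRK10, CRK42) were lower, where 17.9% of all genes tested were higher and 18.4% lower, and 16 were at least 2-fold higher, against 4.57% of all genes; none was at least 2-fold lower, against 3.68%. The median log2 fold change of the members was 0.73, over a range of -0.75 to 3.93, beside -0.017 for all genes. Every al24567 library stood above every Col-0 library in 26 members, against 23.2% of all genes. CRK33 had 0 reads in every library and was not tested, which allows a level of up to 0.134 to 0.164 CPM (3 counts) in a library, by counting error only. In whole seedlings more cells of a type and more RNA per cell cannot be told apart. The 5 root markers rose in the same libraries, and their part in the result was not tested.

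**Figure D1:**
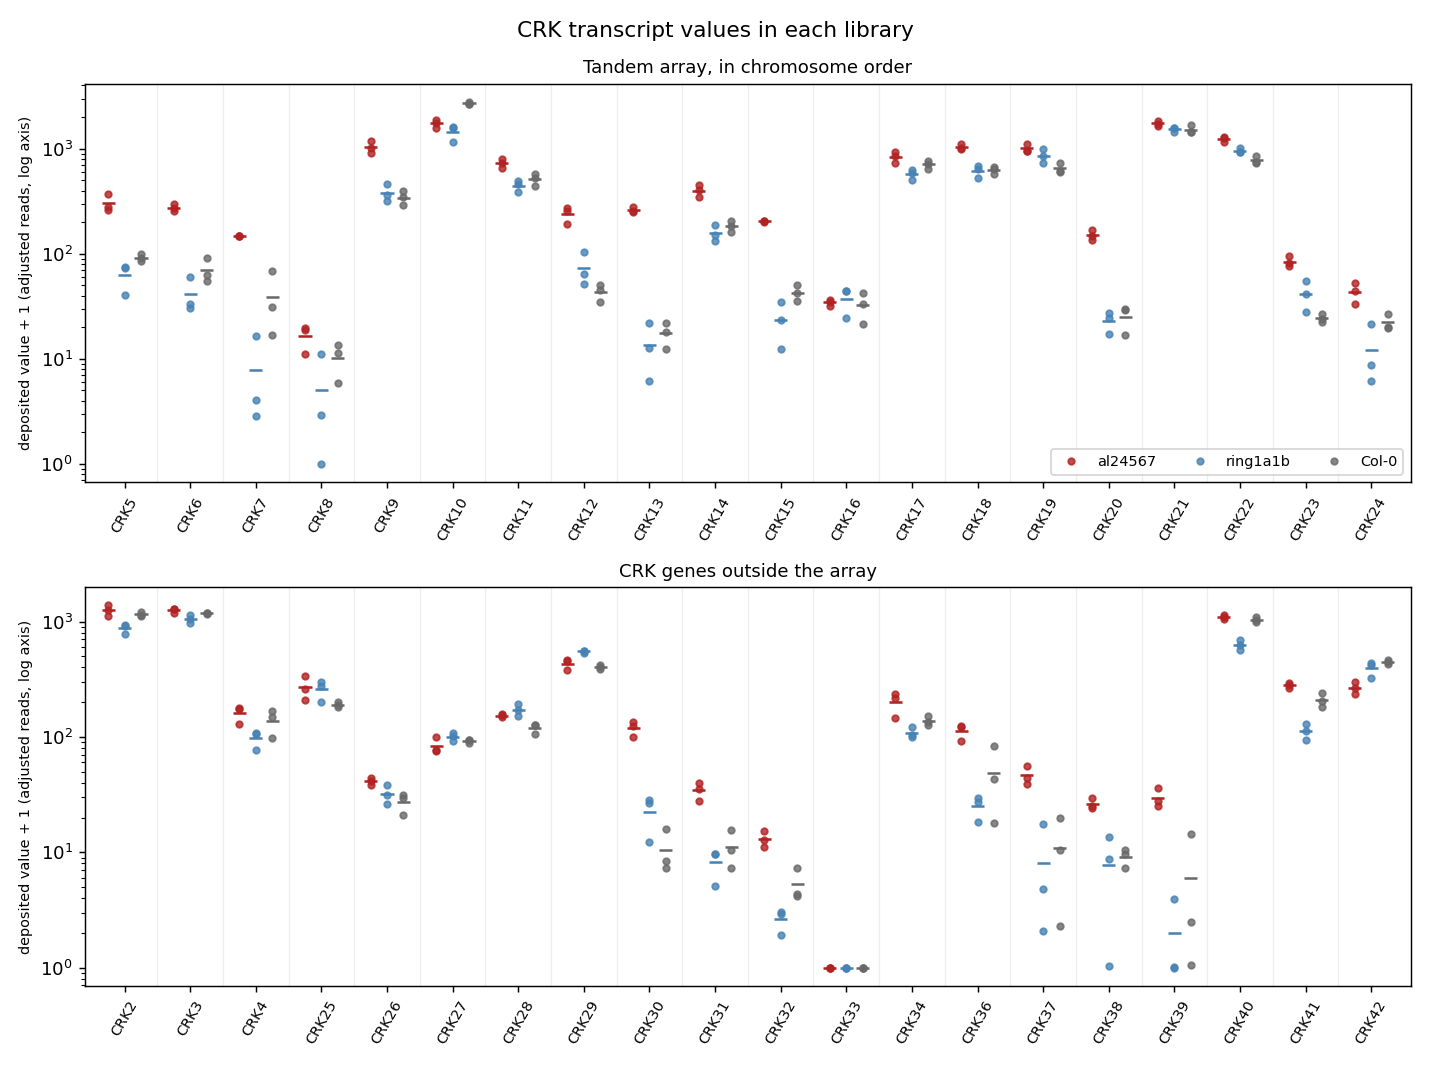
Deposited value plus 1 of each member in each of the 9 libraries (points) on a log axis, with genotype means as dashes, al24567, ring1a1b and Col-0 side by side, the array in chromosome order above and the other members below. CRK13, CRK30, CRK20 and CRK12 show al24567 points far above the Col-0 points, CRK10 shows Col-0 on top, and CRK7 shows ring1a1b below and al24567 above Col-0.

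CRK13 (AT4G23210), whose overexpression is known to give salicylic acid-dependent resistance to Pseudomonas syringae, had values of 254, 246 and 277 in al24567, against 11.5, 21.0 and 17.1 in Col-0. All al24567 libraries were far above all Col-0 libraries, and the log2 fold change was 3.93 ± 0.37 (SE; limma adjusted p = 1.58e-07), which is 15.2-fold and the largest of the 39. CRK20 (AT4G23280), a kinase induced by pathogens and ozone, had 135, 147 and 166 in al24567 and 28.0, 16.0 and 28.5 in Col-0, a log2 fold change of 2.62 ± 0.28 (limma adjusted p = 8.92e-07). CRK12 (AT4G23200) had 189, 252 and 275 in al24567 and 33.4, 49.4 and 43.7 in Col-0, a log2 fold change of 2.47 ± 0.25 (limma adjusted p = 3.2e-07). For each of these genes the lowest al24567 library was above the highest Col-0 library.

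CRK5 (AT4G23130), which is induced by salicylic acid, had 369, 277 and 260 in al24567 and 89.4, 97.9 and 84.5 in Col-0, a log2 fold change of 1.71 ± 0.21 (limma adjusted p = 4.8e-06). CRK6 (AT4G23140), known together with CRK7 for a role in the response to reactive oxygen outside the cell, had 270, 296 and 254 in al24567 and 54.2, 90.2 and 62.2 in Col-0, a log2 fold change of 2.004 ± 0.25 (limma adjusted p = 4.07e-06). CRK7 (AT4G23150) had 146, 148 and 147 in al24567 and 15.9, 67.8 and 30.4 in Col-0, a log2 fold change of 2.16 ± 0.53 (limma adjusted p = 0.00329). The al24567 libraries of CRK7 lay almost on top of each other, whereas its Col-0 libraries spread widely with replicate 2 the highest. Groups did not overlap for any of these 3 genes.

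CRK9 (AT4G23170), the member with the shortest coding sequence, had 1023, 917 and 1177 in al24567 and 287, 346 and 392 in Col-0, a log2 fold change of 1.61 ± 0.13 with the smallest p of the family (limma adjusted p = 2.78e-08). CRK14 (AT4G23220) had 347, 401 and 448 in al24567 and 206, 182 and 159 in Col-0, a log2 fold change of 1.13 ± 0.15 (limma adjusted p = 7.77e-06). CRK15 (AT4G23230) had 204, 205 and 198 in al24567 and 34.4, 41.1 and 49.2 in Col-0, a log2 fold change of 2.27 ± 0.30 (limma adjusted p = 8.84e-06). Again no Col-0 library reached an al24567 library. CRK23 (AT4G23310) had 94.2, 75.5 and 80.0 in al24567 and 25.9, 23.2 and 21.3 in Col-0, a log2 fold change of 1.78 ± 0.27 (limma adjusted p = 4.81e-05).

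Smaller rises were called in 5 further array members. Log2 fold changes were 0.50 for CRK11, 0.73 for CRK18, 0.63 for CRK19, 0.67 for CRK22 and 0.20 for CRK21, whose limma adjusted p of 0.0494 lay just inside the threshold. CRK8, CRK16, CRK17 and CRK24 were not called, at 0.73, 0.14, 0.23 and 0.96. On the recovered reads CRK24 was called with edgeR TMM (edgeR adjusted p = 0.0414) and DESeq2 (DESeq2 adjusted p = 0.0498). CRK10 (AT4G23180), for which a gain-of-function allele is known to collapse xylem vessels, was the one array member that fell. It had 1559, 1766 and 1892 in al24567 and 2644, 2645 and 2799 in Col-0, a log2 fold change of -0.64 ± 0.10 (limma adjusted p = 6.64e-05); its library values, like those of CRK39 and CRK42, are printed because of what they showed. All al24567 libraries of CRK10 were below all Col-0 libraries. The call of CRK21 was lost without Col-0 replicate 2 or 3 or al24567 replicate 1 or 3, with limma adjusted p of 0.0821 to 0.188, and at several other settings.

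**Figure D2:**
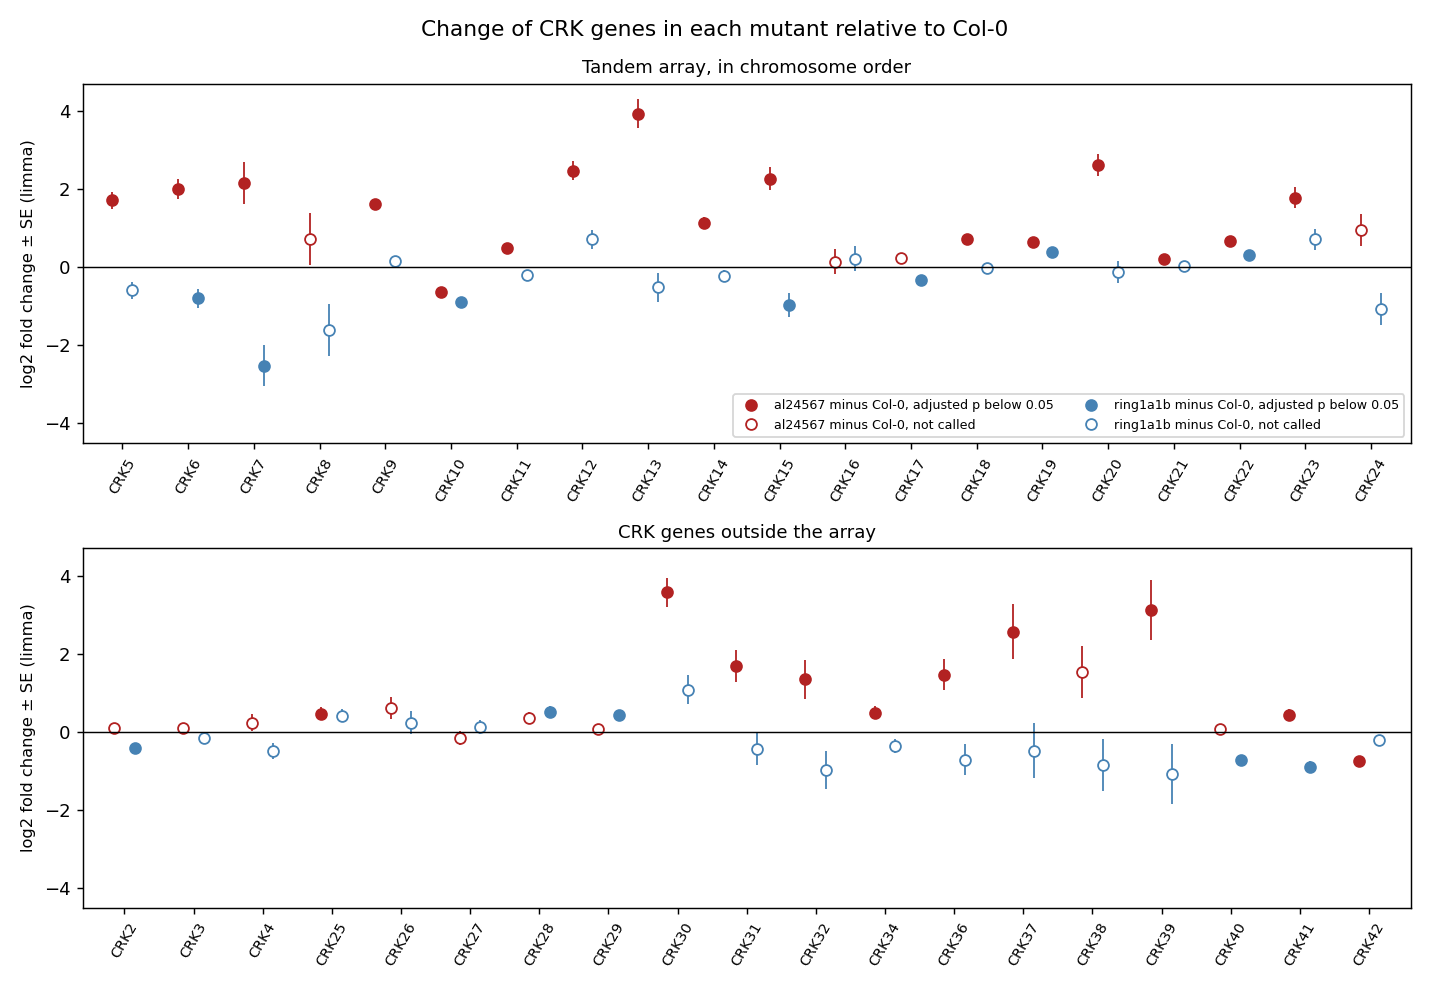
Log2 fold change of each tested member in al24567 against Col-0 and in ring1a1b against Col-0, with bars of 1 standard error and filled points for adjusted p below 0.05. The al24567 points run from -0.75 (CRK42) to 3.93 (CRK13), and the ring1a1b points from -2.52 (CRK7) to 1.08 (CRK30).

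Outside the array, 9 of the 19 tested members rose in al24567, against 17.9% of all genes tested, with a median log2 fold change of 0.47. The genes fell into positional groups. In the group at AT4G11 (CRK30 to CRK34) all 4 tested members rose, with a median of 1.52. CRK30 (AT4G11460) had 122, 135 and 98.2 in al24567 and 6.30, 7.43 and 14.9 in Col-0, a log2 fold change of 3.57 ± 0.37 (limma adjusted p = 5.19e-07) and 11.9-fold. CRK31 (AT4G11470) had 27.1, 39.1 and 34.4 in al24567 and 6.30, 14.6 and 9.36 in Col-0, a log2 fold change of 1.69 ± 0.41 (limma adjusted p = 0.00328). The al24567 libraries of both genes stood clear of Col-0. CRK32 rose by 1.34, on 34 reads summed over the al24567 libraries and 13 over the Col-0 libraries, and CRK34 rose by 0.50.

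In the group at AT4G04 (CRK36 to CRK40), 3 of 5 members rose, against 17.9% of all genes, with a median of 1.55. CRK36, which is known to interact with the immune kinase BIK1, rose by 1.47 and CRK37 by 2.56. CRK39 (AT4G04540) rose by 3.12 ± 0.77 (limma adjusted p = 0.0034) on few reads, 24, 25 and 32 in al24567 against 0, 13 and 2 in Col-0, so that Col-0 replicate 2 held nearly all of the Col-0 reads. CRK38 stood at 1.55 (limma adjusted p = 0.0785) and CRK40 at 0.075 (limma adjusted p = 0.504). On the recovered reads CRK38 was called with edgeR TMM (edgeR adjusted p = 0.0239) and DESeq2 (DESeq2 adjusted p = 0.0197). None of the 3 members at AT4G21 (CRK27, CRK28, CRK29) and neither member of the pair on chromosome 1 (CRK2, CRK3) was called.

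Of the 5 members that stand alone, CRK25 rose by 0.47 and CRK41 by 0.43, CRK42 fell, and CRK4 (0.24) and CRK26 (0.62) were not called. CRK42 (AT5G40380) had 234, 265 and 300 in al24567 and 431, 447 and 466 in Col-0, a log2 fold change of -0.75 ± 0.12 (limma adjusted p = 7.15e-05). Its al24567 libraries were all below its Col-0 libraries.

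Several of these calls lay near the threshold and were lost with 1 library fewer, at folds that mostly stayed close to those given. CRK25 lost its call without any one of the 3 Col-0 libraries or al24567 replicate 1 or 2, at log2 fold changes of 0.29 to 0.50 (limma adjusted p of 0.0564 to 0.187). CRK32 lost it without Col-0 replicate 1 or 3 or any one al24567 library, at 1.20 to 1.46 (0.0583 to 0.12). CRK34 lost it without Col-0 replicate 1 or 3 or al24567 replicate 1 or 2, at 0.37 to 0.48 (0.0943 to 0.162). CRK41 lost it without Col-0 replicate 1 or 3 or al24567 replicate 2 or 3, at 0.34 to 0.42 (0.0682 to 0.139). CRK37 stood at 1.68 without Col-0 replicate 3 (limma adjusted p = 0.0636) and at 3.23 without Col-0 replicate 2, and CRK39 at 2.28 without Col-0 replicate 1 and at 4.18 without Col-0 replicate 2. The calls of CRK32, CRK37 and CRK39 were also lost with DESeq2 on the recovered reads (DESeq2 adjusted p of 0.121, 0.0691 and 0.196), and CRK36 lost its call in a fit of al24567 and Col-0 alone (limma adjusted p = 0.0607). Without one library the number of members outside the array that rose was 4 to 8, with 5 without Col-0 replicate 1, 4 without Col-0 replicate 3 and 5 without al24567 replicate 2.

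In ring1a1b fewer members were called against Col-0. Of the 39 members tested, 4 (CRK19, CRK22, CRK28, CRK29) were higher and 8 (CRK2, CRK6, CRK7, CRK10, CRK15, CRK17, CRK40, CRK41) were lower, where 10% of all genes tested were higher and 7.67% lower. The count of higher members is near the share for all genes, and the balance of directions depended on the scaling and the tool: with equal library totals 6 members were higher and 6 lower, and with edgeR TMM on the recovered reads 7 were higher and 8 lower. None was at least 2-fold higher and 1 (CRK7) was at least 2-fold lower, against 4.32% and 1.14% of all genes. Every ring1a1b library stood above every Col-0 library in 6 members and below in 11, against 17.4% and 18.3% of all genes. The median log2 fold change of the members was -0.33, beside -0.019 for all genes. Seed markers were higher in the same ring1a1b libraries, and their part in the result was not tested.

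CRK7 had 1.88, 15.5 and 3.08 in ring1a1b and 15.9, 67.8 and 30.4 in Col-0, from 21 reads in all in ring1a1b and 116 in Col-0. Its log2 fold change was -2.52 ± 0.53 (limma adjusted p = 0.00224), or -3.27 without ring1a1b replicate 2. All ring1a1b libraries were below all Col-0 libraries, by a narrow margin between ring1a1b replicate 2 and Col-0 replicate 1. CRK6 had 31.9, 59.4 and 29.6 in ring1a1b and 54.2, 90.2 and 62.2 in Col-0, a log2 fold change of -0.80 ± 0.25 (limma adjusted p = 0.0318), with groups that overlapped. CRK15 had 22.3, 33.6 and 11.3 in ring1a1b and 34.4, 41.1 and 49.2 in Col-0, a log2 fold change of -0.97 ± 0.30 (limma adjusted p = 0.0305). The ring1a1b libraries of CRK15 were all lower, the highest of them just under the lowest of Col-0.

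CRK40 (AT4G04570) had the smallest p of the comparison, with 570, 688 and 626 in ring1a1b and 1038, 983 and 1095 in Col-0, a log2 fold change of -0.73 ± 0.08 (limma adjusted p = 2.84e-06). CRK41 (AT4G00970) had 129, 111 and 93.8 in ring1a1b and 202, 241 and 182 in Col-0, a log2 fold change of -0.90 ± 0.15 (limma adjusted p = 0.00023). CRK10 had 1167, 1582 and 1618 in ring1a1b, below the Col-0 values given above, at -0.90 ± 0.10 (limma adjusted p = 3.42e-06). In these 3 genes the ring1a1b and Col-0 libraries did not overlap. CRK2 (AT1G70520), which phosphorylates the NADPH oxidase RBOHD, fell by 0.42 and CRK17 by 0.33. CRK28 and CRK29, of which CRK28 is known to associate with the receptor FLS2 and its partner BAK1, rose by 0.52 and 0.44, and CRK19 and CRK22 by 0.39 and 0.31. CRK30 (1.08) and CRK12 (0.71) were not called, with limma adjusted p of 0.0514 and 0.0543, and were called with edgeR on the recovered reads (edgeR adjusted p of 0.0452 and 0.0275).

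The calls of CRK2, CRK7, CRK10, CRK29, CRK40 and CRK41 in ring1a1b held at every setting that kept the gene and without each library in turn. CRK6 lost its call without Col-0 replicate 2 or 3 or ring1a1b replicate 1 or 3 (limma adjusted p of 0.0614 to 0.173). CRK15 lost it without those same libraries (0.0524 to 0.164), and CRK17 without Col-0 replicate 1 or 2 or ring1a1b replicate 2 or 3 (0.0594 to 0.185). CRK19 lost it without Col-0 replicate 1 or 3 or ring1a1b replicate 2 (0.0611 to 0.0895), CRK22 without Col-0 replicate 2 or 3 or ring1a1b replicate 2 (0.0589 to 0.0609), and CRK28 without Col-0 replicate 2 or ring1a1b replicate 2 or 3 (0.0574 to 0.106). Replicate 2 was the highest of its genotype's 3 libraries in 18 of the 39 members in al24567, 22 in ring1a1b and 19 in Col-0, and in 9, 15 and 10 of the 20 array members.

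**Figure D3:**
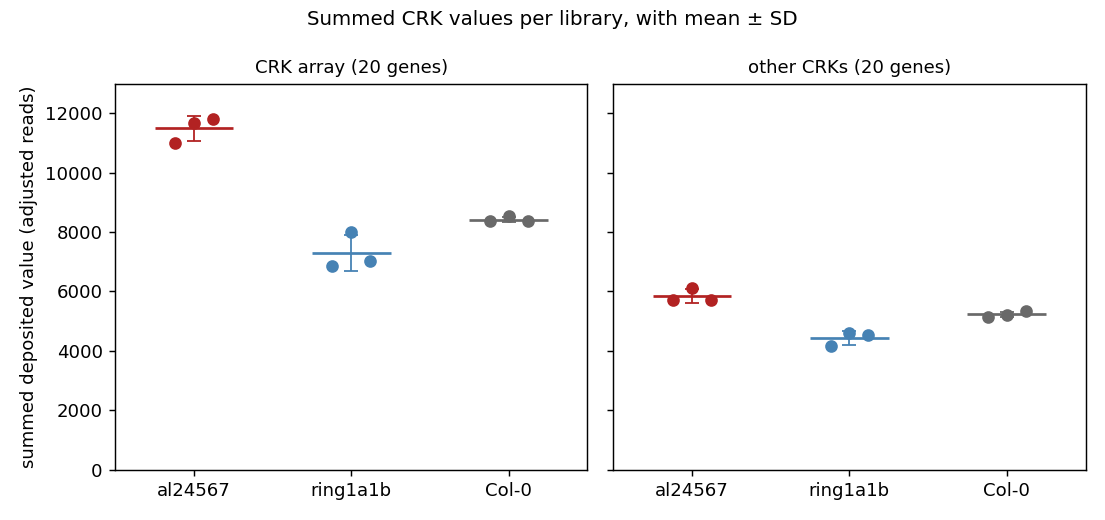
Summed deposited value of the 20 array members (left) and of the other 20 members (right) in each library, with the mean and SD of each genotype. The array sums average 11500 in al24567, 7301 in ring1a1b and 8420 in Col-0, and the 3 al24567 libraries lie above all others in both panels. From Col-0 to ring1a1b the mean of CRK10 alone fell by more than the array sum.

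Set directly against each other, the mutants differed more than either did from Col-0. In ring1a1b 2 members (CRK29, CRK42) were higher and 30 were lower than in al24567, where 20% of all genes tested were higher and 18.9% lower, and 20 were at least 2-fold lower, against 4.45% of all genes. Every ring1a1b library stood below every al24567 library in 29 members, against 23% of all genes. The median log2 difference was -1.07, beside 0.019 for all genes. CRK13 had 11.6, 21.2 and 5.15 in ring1a1b, against the al24567 values given above, a log2 difference of -4.44 ± 0.37 (limma adjusted p = 2.56e-08). CRK9 had 365, 459 and 320 in ring1a1b, at -1.45 ± 0.13 (limma adjusted p = 6.81e-08), and CRK5 had 71.9, 73.6 and 39.8, at -2.31 ± 0.21 (limma adjusted p = 1e-07). None of these ring1a1b libraries came near an al24567 library. CRK40 had 570, 688 and 626 in ring1a1b and 1054, 1128 and 1099 in al24567, at -0.80 ± 0.08 (limma adjusted p = 2.4e-07).

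CRK12, CRK14, CRK20, CRK23, CRK30 and CRK31 were lower in ring1a1b as well. CRK20 had 26.2, 16.1 and 23.4 in ring1a1b, CRK12 had 63.0, 103 and 50.02, and CRK14 had 151, 188 and 132. CRK23 had 27.0, 53.6 and 40.7 in ring1a1b, CRK30 had 27.2, 25.8 and 11.3, and CRK31 had 8.75, 8.61 and 4.10. All 6 were called lower than in al24567, with log2 differences of -1.07 (CRK23) to -2.74 (CRK20) and no overlap between the groups.

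CRK6, CRK7, CRK15 and CRK41 were called higher in al24567 and lower in ring1a1b than the shared Col-0 libraries. The share of all genes called in opposite directions is not given here, and a difference between the mutants follows from these calls. Between the mutants the log2 difference was -2.80 ± 0.25 for CRK6 (limma adjusted p = 5.3e-08), -4.67 ± 0.53 for CRK7 (limma adjusted p = 1.07e-06), -3.24 ± 0.30 for CRK15 (limma adjusted p = 9.53e-08) and -1.33 ± 0.15 for CRK41 (limma adjusted p = 8.51e-07). CRK41 had 129, 111 and 93.8 in ring1a1b and 264, 290 and 283 in al24567, with no overlap. In CRK19 and CRK22 both mutants were higher than Col-0, and in CRK10 both were lower. The lower value of CRK10 in ring1a1b than in al24567 (-0.27 ± 0.10, limma adjusted p = 0.0436) came from groups that overlapped, and it was lost without al24567 replicate 2 or 3 or ring1a1b replicate 1 (0.0963 to 0.303) and with edgeR TMM (edgeR adjusted p = 0.0514). CRK3 and CRK4 lost their calls without ring1a1b replicate 1 (limma adjusted p of 0.0585 and 0.0633) and CRK8 without ring1a1b replicate 2 (0.0592). Log2 differences of called members also moved without single ring1a1b libraries: without replicate 2, CRK7 stood at -5.43, CRK8 at -1.49, CRK37 at -3.86 and CRK38 at -3.13. Without replicate 3, CRK8 stood at -3.23, CRK37 at -2.32 and CRK38 at -1.27, and without replicate 1 CRK39 stood at -4.87.

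The array had more members called than the other members in al24567 against Col-0 and in ring1a1b against al24567. Among all genes tested, 17.9% rose in al24567, 18.4% fell and 4.57% were at least 2-fold higher. In al24567 against Col-0, 15 of 20 array members rose and 1 fell, with a median log2 fold change of 1.04 and 10 at least 2-fold higher. Of the other members, 9 of 19 rose and 1 fell, with a median of 0.47 and 6 at least 2-fold higher. Members were also split at a mean value of 100 over all 9 libraries. At 100 or more, 10 of 12 array members and 3 of 10 others rose, against 22.7% of all genes of that level. Under 100, 5 of 8 array members and 6 of 9 others rose, against 9.48% of all genes of that level. The al24567 values enter this mean, so the split is not independent of the rise. CRK5, CRK6 and CRK12 counted as 100 or more, although their Col-0 means were 90.6, 68.9 and 42.2. Their al24567 means were 302, 273 and 239. The groups at AT4G11 and AT4G04 had higher medians than the array, 1.52 and 1.55. In ring1a1b against Col-0, 2 array members rose and 5 fell, at a median of -0.21, and 2 other members rose and 3 fell, at a median of -0.42. The counts that rose are at the share of all genes (10%), and 7.67% of all genes fell. Of all genes, 18.9% were lower and 20% higher in ring1a1b than in al24567. In that comparison 17 array members were lower and none higher, at a median of -1.40, and 13 other members were lower and 2 higher, at a median of -0.80. The difference between these 2 sets was not tested, since members of one array share sequence and reads. With equal library totals the ring1a1b counts in the array were 3 higher and 3 lower.

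The summed value of the array was 11500 ± 426 in al24567, 7301 ± 610 in ring1a1b and 8420 ± 93.9 in Col-0 (SD, n = 3 each). High members weigh most in such sums. CRK10 alone averaged 1456 in ring1a1b and 2696 in Col-0, a larger fall than that of the array sum, so the lower sum does not describe the array as a whole. The summed value of the other members was 5845 ± 238 in al24567, 4434 ± 236 in ring1a1b and 5226 ± 100.3 in Col-0. Most of its fall in ring1a1b came from CRK40 (628 in ring1a1b, 1039 in Col-0) and CRK2 (870 and 1158).

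Per kilobase of exon, levels within the family spanned a wide range and their order differed between genotypes. In al24567 the highest mean values per kilobase were 732 for CRK21, 684 for CRK10 and 570 for CRK9. In ring1a1b they were 646 for CRK21, 572 for CRK10 and 369 for CRK22. In Col-0 they were 1060 for CRK10, 639 for CRK21 and 482 for CRK2. CRK9 stood at 187 per kilobase in Col-0 and CRK13 at 6.31, against 98.8 in al24567. The median value per kilobase of the array members was 118 in al24567, 27.5 in ring1a1b and 32.5 in Col-0, and that of the other members was 49.4 in al24567, 40.3 in ring1a1b and 41.8 in Col-0.

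The array covers 74.2 kb (chr4:12117491-12191704, TAIR10.1), with 9 members on the plus strand and 11 on the minus strand. Of the 10 table genes on each side of it, 7 passed the filter on low values. In al24567, 3 of the 7 rose, AT4G23050, RBL7 and GSH1 (a glutathione synthesis enzyme), at a median over the 7 of 0.34, against 17.9% of all genes, and in ring1a1b 1 (AT4G23050) rose, near the 10% of all genes. RBL7 was at 2.07 in al24567, on few reads, 34 summed over the al24567 libraries and 6 over the Col-0 libraries. GSH1 was at 0.58.

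Other CRK genes and related DUF26 proteins give a context. CRK45 (AT4G11890), known for a role in abscisic acid responses, averaged 814 in al24567, 75.5 in ring1a1b and 99.7 in Col-0, and its log2 fold change in al24567 was 3.12 ± 0.23 (limma adjusted p = 9.2e-09). Of the 3 tested CRK genes outside the 40, it was the one called in al24567, and AT1G70740 fell by 0.56 in ring1a1b. Plasmodesmata-located proteins carry the same DUF26 domain without a kinase. Of these 8, 3 rose in al24567 (PDLP5 by 1.62, PDLP1 by 1.03, PDLP6 by 0.43), against 17.9% of all genes. PDLP3 fell by 0.48, against 18.4% of all genes, and the median of the 8 was 0.35. In ring1a1b PDLP6 rose by 0.91 and PDLP2 fell by 0.60, at a median of -0.12, counts near the shares of all genes (10% and 7.67%). The call of PDLP6 in al24567 was lost without Col-0 replicate 2 or 3 or al24567 replicate 1 (limma adjusted p of 0.0745 to 0.126). Between ring1a1b and al24567, 1 was higher and 4 were lower, against 20% and 18.9% of all genes. PDLP1 lost this call without any single al24567 library or ring1a1b replicate 2 or 3 (limma adjusted p of 0.063 to 0.161). PDLP8 lost it without al24567 replicate 1 or 2 or any single ring1a1b library (0.0539 to 0.116). PDLP6, which was higher, lost it without al24567 replicate 2 or ring1a1b replicate 3 (0.0685 and 0.0807).

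**Figure D4:**
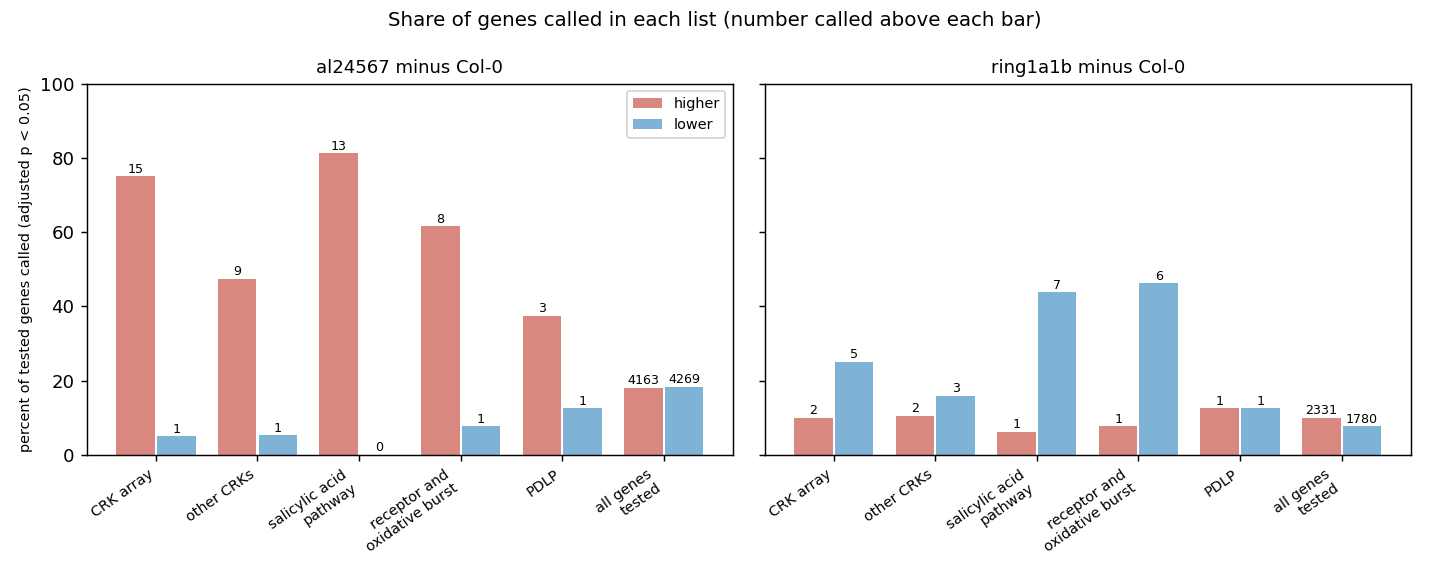
Percent of the tested genes called higher (red bars) or lower (blue bars), with the number called above each bar, for the array, the other members, 3 companion lists and all genes, with al24567 against Col-0 on the left and ring1a1b against Col-0 on the right. The array reaches 15 of 20 higher in al24567 and 5 of 20 lower in ring1a1b, beside 17.9% and 7.67% of all genes.

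The salicylic acid pathway moved in the same libraries as the family. Among all genes tested, 17.9% rose in al24567 and 18.4% fell. Of 16 genes of salicylic acid synthesis, signalling and response, 13 rose in al24567 and none fell, at a median log2 fold change of 1.20. The largest were 2.36 for the response gene PR1, 2.34 for FMO1, which makes the systemic signal N-hydroxypipecolic acid, and 1.69 for PR2. In ring1a1b 1 rose (SAG101, 0.41) and 7 fell, against 10% and 7.67% of all genes, at a median of -0.43. Among those that fell were PR1 at -4.95, the regulator SARD1 at -1.63 and WRKY70 at -1.54. PR1 had 19.97, 194 and 7.38 in ring1a1b, and stood at -6.24 without ring1a1b replicate 2 and at -3.97 without ring1a1b replicate 3. PR2 in al24567 stood at 2.39 without Col-0 replicate 2, and SAG101 lost its call without ring1a1b replicate 3 (limma adjusted p = 0.0571). In ring1a1b PR2 lost its call without Col-0 replicate 2 or any single ring1a1b library (limma adjusted p of 0.0795 to 0.187). PR5 lost it without any single Col-0 library or ring1a1b replicate 3 (0.0501 to 0.223). CBP60G lost it without Col-0 replicate 2 or ring1a1b replicate 1 or 3 (0.0554 to 0.0712). ICS1 lost it without Col-0 replicate 2 or 3 or ring1a1b replicate 2 (0.0641 to 0.104). ALD1 lost its call in al24567 without Col-0 or al24567 replicate 3 (0.0696 and 0.059). Between ring1a1b and al24567 14 of the 16 were lower, against 18.9% of all genes, at a median of -1.73.

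Of 13 pattern receptor and oxidative burst partners, 8 rose in al24567 and MPK3 fell (-0.37), against 17.9% and 18.4% of all genes. Their median log2 fold change was 0.42. The largest rises were those of the wall-associated kinases WAK1 (1.75) and WAK2 (1.20) and of BIK1 (0.62). In ring1a1b 6 of the 13 fell, against 7.67% of all genes, at a median of -0.17. WAK1 stood at -1.23, the flagellin receptor FLS2 at -0.64 and SOBIR1 at -0.59. The NADPH oxidase gene RBOHF alone rose, by 0.28, a count near the 10% of all genes. Without Col-0 replicate 3 the calls of MPK3 in al24567 and of FLS2 and RBOHF in ring1a1b were lost (limma adjusted p of 0.054, 0.0514 and 0.0914), and that of RBOHF also without ring1a1b replicate 2 or 3 (0.0813 and 0.0845). RBOHD lost its call in ring1a1b without Col-0 replicate 1 or ring1a1b replicate 1 (0.0503 and 0.0567), and WAK2 without ring1a1b replicate 3 (0.0635). BAK1 and EFR lost their calls in al24567 without Col-0 replicate 1 (limma adjusted p of 0.0541 and 0.0818). Between ring1a1b and al24567, 10 were lower and 1 was higher, against 18.9% and 20% of all genes, at a median of -0.61. These lists were put together with results of these data known, and their counts are not independent of them.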

How the data were processed

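RNA-seq of whole seedlings was made with paired reads, 3 libraries per genotype, per the labels' titles and extract protocol; the labels' molecule and library source fields say genomic DNA, and the values were treated as RNA-seq. The submitters' processing notes name bcl2fastq, HISAT2, edgeR and the build TAIR10; tool versions, the counting tool, the gene annotation and the strand setting are not given in the sources used here. The deposited table holds a signal per gene that, from its values, the authors made by adjusting counts to a common library size, as edgeR pseudo-counts. Inverting that adjustment gave whole reads for 100% of 292932 values, within 0.01 reads or a relative 1e-05, and 18258434 to 22435656 reads per library, which limit precision for low genes.

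The main test was limma (3.58.1, trend) on log2(value + 1) over genes that reached a value of 1 in 3 or more libraries, with all 3 genotypes in one fit and Benjamini-Hochberg adjustment over the 23207 genes. DESeq2 (1.42.0) and edgeR's quasi-likelihood test (4.0.16) were run on the recovered reads as alternatives; edgeR with TMM called 4249 genes higher and 4123 lower in al24567 than in Col-0, 2512 and 1605 in ring1a1b, and 4722 and 4243 between ring1a1b and al24567. The alternatives were another pseudocount, filter, scaling, a fit of 2 genotypes alone, a replicate block and leaving out each library. The method was tested on simulated data. Library values are printed for members called with an absolute log2 fold change of at least 1, at most 12 per mutant by smallest p, for members called in opposite directions, and for the 6 smallest p between the mutants. Members and lists were chosen with earlier results of these data known. Sequences and coordinates come from TAIR10.1 (RefSeq), in which all 32548 gene identifiers were found.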

Additional observations from a re-analysis of the deposited data

Results flagged for a closer look

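For 4 members the 2 mutants were called in opposite directions against the Col-0 libraries they share. The share of all genes called this way is not given here. A direct difference between ring1a1b and al24567 follows from those calls in the same fit and adds no support to them. The log2 difference was -2.80 for CRK6, -4.67 for CRK7, -3.24 for CRK15 and -1.33 for CRK41, with limma adjusted p of 5.3e-08 for CRK6, 1.07e-06 for CRK7, 9.53e-08 for CRK15 and 8.51e-07 for CRK41. Every ring1a1b library was lower than every al24567 library in all 4 genes. The fall of CRK6 and CRK15 in ring1a1b and the rise of CRK41 in al24567 were each lost without one of several libraries, whereas both calls of CRK7 held.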

How the results depend on the processing

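In al24567 the number of array members higher than in Col-0 was 14 to 15 without one library, and the median log2 fold change of the array 0.96 to 1.11. Other counts moved. Without one library, the other members called higher in al24567 numbered 4 to 8. In ring1a1b against Col-0, 0 to 3 array members were then higher and 2 to 6 lower, at a median of -0.32 to -0.14, and 1 to 3 other members were higher and 3 to 5 lower, at a median of -0.45 to -0.15. No array member was higher in ring1a1b without Col-0 replicate 3 or without ring1a1b replicate 2. Array members lower in ring1a1b numbered 3 with equal library totals and 3 in a fit of ring1a1b and Col-0 alone, and other members higher in ring1a1b numbered 4 with edgeR TMM and 4 with edgeR RLE. Over all genes, equal library totals gave 2672 higher and 1156 lower in ring1a1b than in Col-0, and 6030 and 3247 in ring1a1b against al24567, beside 2331 and 1780, and 4652 and 4388, with the deposited scaling. The cause was not tested.

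Signs changed in uncalled members. With equal library totals CRK18 stood at 0.031 in ring1a1b against Col-0 and CRK25 at 0.051 in ring1a1b against al24567. Without one library, log2 fold changes in ring1a1b against Col-0 ran from -0.064 to 0.49 for CRK16, from -0.11 to 0.088 for CRK18, from -0.38 to 0.080 for CRK20, from -0.021 to 0.090 for CRK21, from -1.36 to 0.24 for CRK37 and from -1.58 to 0.28 for CRK38. CRK16 ran from -0.13 to 0.37 in al24567 against Col-0 and from -0.069 to 0.35 in ring1a1b against al24567, where CRK25 ran from -0.21 to 0.13.

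Over all genes tested, correlations of same-numbered deviations between genotypes were at most 0.038. Such a correlation cannot show whether the members share a replicate effect. Replicate 2 was the highest library in 18 of the 39 members in al24567, 22 in ring1a1b and 19 in Col-0. With the replicate block, array members called were 15 higher in al24567, 3 higher and 6 lower in ring1a1b, and 19 lower in ring1a1b than in al24567. The other members called were 8 higher in al24567, and 2 higher and 3 lower in ring1a1b. Depth limits CRK8, CRK32, CRK38 and CRK39, which had at most 44, 34, 72 and 81 reads in any genotype.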
